A study of Mus musculus with 40 samples.

Results

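The respiratory chain and the ATP synthase of the mitochondrial inner membrane are described here through the nuclear genes of their subunits in mouse white adipose tissue. Members were taken by symbol. Genes that begin with Ndufa, Ndufb, Ndufc, Ndufs, Ndufv, Uqcr, Cox4, Cox5, Cox6, Cox7, Cox8 or Atp5 were included, except Cox7a1 and Cox8b, when their brightest probe was above background on 20 or more of 40 arrays. Of 80 such genes on the array, 75 were kept, of 9795 named genes with a probe above background in the whole study. They comprised 33 genes of complex I, 5 assembly factors of complex I that carry the Ndufaf symbols, 6 genes of complex III, 14 of complex IV, 16 of the ATP synthase, and Cox7a2l, which acts in joining complexes III and IV and was set apart. The 5 genes left out were Ndufs1, the largest iron-sulphur core subunit of complex I, with 0 arrays above background, Uqcrq with 1, Cox7b2 with 2, Uqcrfs1, the Rieske iron-sulphur protein of complex III, with 17, and Cox8c with 18. Just inside the limit were Cox4i2 with 20 arrays and Atp5k with 21. The paralog Ndufa4l2 was not analysed here.

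Complex I passes electrons from NADH to ubiquinone, complex III passes them on to cytochrome c, and complex IV gives them to oxygen. The protons moved on the way drive the ATP synthase. White adipocytes hold fewer mitochondria than brown adipocytes, and use them for fatty acid synthesis and glyceride turnover as well as for ATP.

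The tissue was the gonadal white fat pad of male C57BL/6J mice of 9 weeks of age. Dams were fed a low-fat (LF) or high-fat (HF) diet from before mating until weaning, and their sons were fed LF or HF afterwards; coconut oil was the main fat of both diets. The groups are named by the maternal diet and then the post-weaning diet as LL, LH, HL and HH, with 10 animals and 10 bead arrays in each. The animals came from 12 cages, 6 per maternal diet, and 5 cages held animals of both post-weaning diets. The labels give the cage but not the litter. Animals of the same cage may be alike, so p-values that treat each animal as independent may be too small. Each array is 1 sample of the pad, in which fewer cells of a type and less RNA per cell cannot be told apart.

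Values are quantile-normalised intensities in arbitrary units, and compare the same probe between arrays, not the amounts of different transcripts. The background of an array was the 95th percentile of its olfactory and vomeronasal receptor probes, which lay between 78.1 and 94.3 units. In all, 14244 probes were tested. Of the 75 members, 71 were above background on all 40 arrays. Their mean intensities ran from 89.9 for Cox4i2 to 22155 for Atp5g3, with a median of 3963.

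Arrays differed before diet was considered. On 5 arrays (LL animals 1 and 4, HL animals 2, 6 and 8) the mean correlation with the other arrays was under 0.926, against a median of 0.951 over all arrays. On these 5 arrays the mean log2 intensity of 10 testis genes that passed the filter was 8.70 to 13.15, against 6.29 to 10.43 on the other 35. The same mean over 4 epididymis and seminal vesicle genes was 8.51 to 10.91 against 6.42 to 10.08. The mean of 14 adipocyte genes was 10.14 to 10.41 on the 5 arrays against 11.25 to 12.02, with no overlap. HH animal 10 had the highest mean of 8 skeletal muscle genes, 13.78, against a median of 7.19 on the arrays outside the 5. How far these tissues take part in the results below was not tested, and results are given with and without these arrays.

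**Figure D1:**
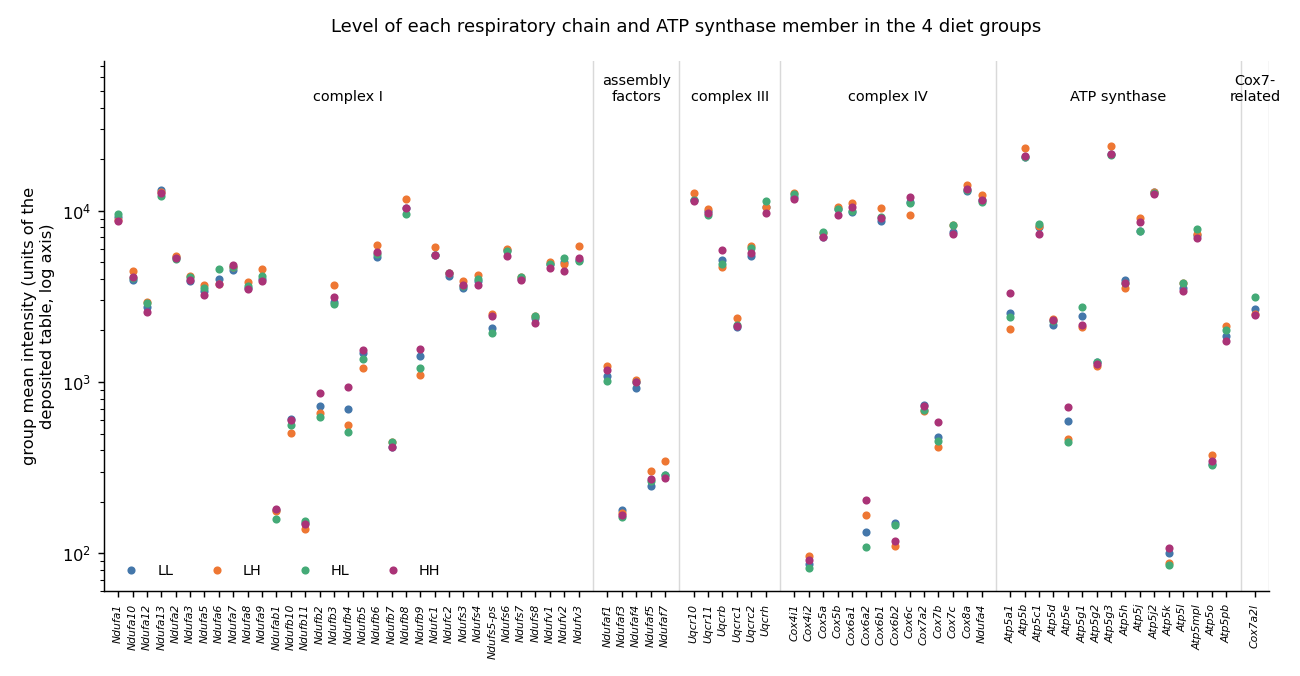
Group mean intensity (log axis, units of the deposited table) of each of the 75 members, ordered by symbol within its complex, in the 4 diet groups with 10 arrays each. For most members the 4 points nearly coincide; on the log2 scale the group means lie furthest apart for Cox6a2, Ndufb4, Atp5a1 and Atp5e.

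In complex I, Ndufv1, which binds NADH, had a lowest, median and highest intensity of 3708, 5209 and 5916 in LL, of 4291, 5241 and 5968 in LH, of 3926, 5218 and 5580 in HL, and of 3670, 4764 and 5368 in HH. The 4 ranges overlapped over most of their width. Ndufa9, an accessory subunit near the ubiquinone site, had medians of 4140 in LL and 4695 in LH, and 4240 in HL against 3834 in HH. Ndufb8, an accessory subunit of the membrane arm, had medians of 11156, 11766, 10340 and 10140 in the same order. Among the members, 52 of 75 had their lowest value of all 40 arrays on 1 of the 5 low-correlation arrays, 27 of them on LL animal 4 and 17 on HL animal 6.

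In complex III, Uqcrc1, a core protein of complex III, had medians of 2156 in LL and 2488 in LH, and 2263 in HL against 2095 in HH. Cox4i1, the common form of the regulatory subunit 4 of complex IV, had a lowest, median and highest intensity of 9267, 12691 and 14122 in LL, of 10995, 12387 and 14420 in LH, of 10334, 12129 and 15122 in HL, and of 10238, 11555 and 13012 in HH. The 2 low values of Cox4i1 in LL belonged to LL animals 1 and 4. Cox5a and Cox5b, partners of the catalytic core, had medians from 6698 to 7504 and from 9436 to 10969. Ndufa4, once counted with complex I and now placed in complex IV, had medians from 11659 to 12311. In the ATP synthase, Atp5b, the catalytic beta subunit, had medians of 22250 in LL and 23604 in LH, and 23065 in HL against 20755 in HH.

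The mean log2 intensity over the members of a complex was used to describe each array. For complex I it was 11.39 ± 0.228 (SD, n = 10) in LL and 11.42 ± 0.0783 in LH, and 11.37 ± 0.202 in HL against 11.40 ± 0.116 in HH. Without the 5 arrays the SD was 0.0682 in LL (n = 8) and 0.107 in HL (n = 7). The score of all members was 10.92 to 11.26 on the 5 arrays and 11.21 to 11.57 on the other 35. For complex I the 5 arrays lay below the other 35 with no overlap, at 10.89 to 11.20 against 11.26 to 11.66. On all 40 arrays the means of any pair of groups differed by less than the SD of either group in complexes I, III and IV and in the ATP synthase. Without the 5 arrays this no longer held. Complex III was then at 12.78 ± 0.0756 (n = 7) in HL and 12.67 ± 0.0596 (n = 10) in HH, and the ATP synthase at 11.60 ± 0.0856 (n = 8) in LL and 11.49 ± 0.106 (n = 10) in LH, gaps wider than either SD.

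**Figure D2:**
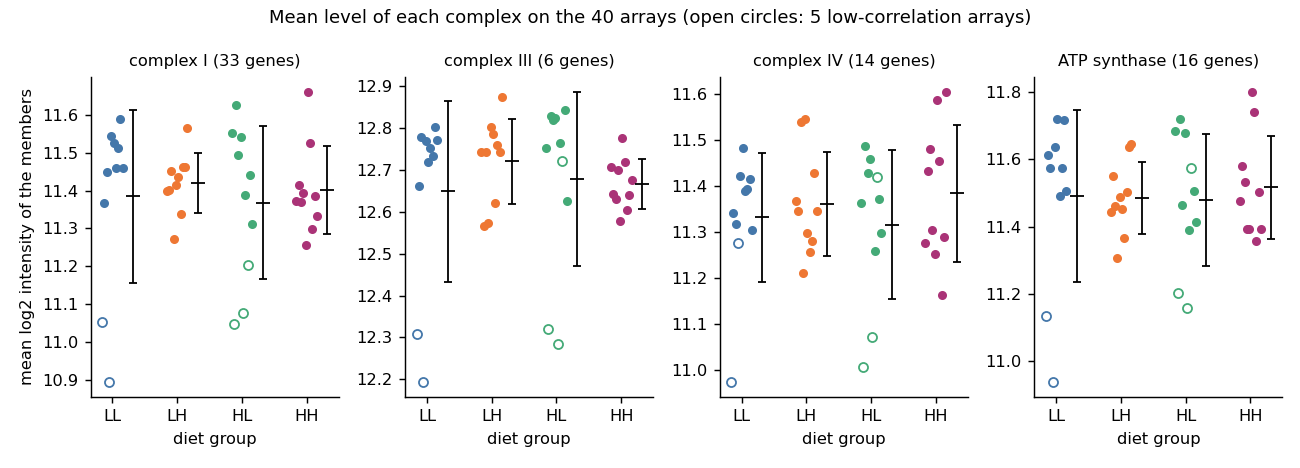
Mean log2 intensity of the members of complex I, complex III, complex IV and the ATP synthase on each of the 40 arrays, by diet group; black marks are the group mean and SD over 10 arrays, and open circles the 5 low-correlation arrays. The low ends of LL and HL are formed by open circles, and the group means of a complex lie within an SD of each other.

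To test the effect of maternal diet in sons fed LF, HL was compared with LL. No member was called at an adjusted p under 0.05 (limma, Benjamini-Hochberg over 14244 probes), beside 0.0% of all probes. The median log2 difference of the members was 0.01, against -0.02 for all probes. At an unadjusted p under 0.05, 1 member was higher, beside 0.562% of all probes, and 0 were lower, beside 0.52%. The member was Ndufa6, an accessory subunit of complex I, with a log2 difference of 0.19 ± 0.0896 (SE). In complex I the differences ran from -0.46 for Ndufb4 to this value. In complex III they ran from -0.08 for Uqcr11 to 0.17 for Uqcrc2, in complex IV from -0.29 for Cox6a2 to 0.13 for Cox7c, and in the ATP synthase from -0.40 for Atp5e to 0.17 for Atp5g1. All 5 low-correlation arrays are in this comparison. Without them the median of the members was 0.06, against 0.01 for all probes. Then 51 of 75 members lay above 0, beside 52.8% of all probes. At an unadjusted p under 0.05, 2 were higher, beside 2.19% of all probes, and 0 lower, beside 2.01%. No member was called.

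Maternal diet in sons fed HF was tested as HH minus LH. No member was called, beside 0.0% of all probes. Here 55 of the 75 members lay below 0 and 20 above, while 43.0% of all probes lay above 0. The median log2 difference of the members was -0.08 against -0.02 for all probes. At an unadjusted p under 0.05, 21 members were lower, beside 9.72% of all probes, and 1 was higher, beside 2.74%. Among the 1425 probes of highest mean intensity, where 53 of the members lie, 13.5% were lower and 4.91% higher. Of the 14 adipocyte genes 5 were lower (35.7%) and 0 higher, with a median of -0.11, 9 below 0 and 5 above. Their part in the result was not tested. The 21 genes made up 28% of the members. They included 11 of complex I, 4 of the ATP synthase, 2 of complex III and 3 of complex IV, and the assembly factor Ndufaf7. None of the 5 low-correlation arrays is in this comparison, but the count depended on how cages were treated. It was 11 with cage as a random block (beside 6.26% of all probes), 10 with all 40 arrays in 1 model (4.55%) and 5 on cage means (3.65%). Without cage 9 it was 8 (7.58%) and without cage 23 it was 13 (7.88%).

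The smallest p among them belonged to Ndufb3, an accessory subunit of the membrane arm of complex I, which was singled out after its values were seen. Its lowest, median and highest intensities were 3149, 3709 and 4291 in LH, and 2647, 3205 and 3552 in HH. Every HH animal lay below the LH median, and the ranges overlapped. The log2 difference was -0.23 ± 0.0622 (limma adjusted p = 0.141). Atp5pb, the b subunit in the peripheral stalk of the ATP synthase, had 1599, 2176 and 2731 in LH against 1531, 1716 and 2169 in HH. Its log2 difference was -0.29 ± 0.0818 (limma adjusted p = 0.156), with 10 of 10 HH animals below the LH median. Further members of the same direction were Ndufv3 (-0.25), Ndufa9 (-0.24), Ndufb8 (-0.18), Cox6b1 (-0.19), Uqcrc1 (-0.17), Atp5b (-0.17) and Cox5b (-0.16). The member higher at an unadjusted p under 0.05 was Cox6c, a small subunit of complex IV, at 0.34 ± 0.133, and Ndufaf7 was at -0.32 ± 0.1; both were singled out after their values were seen. With array weights, by which limma gives less weight to arrays that deviate from their group, Atp5pb, Ndufb3 and Ndufaf7 were called, all lower, beside 1.1% of all probes. The highest differences were those of Ndufb4 (0.73 ± 0.482), Atp5a1 (0.68 ± 0.401), Cox7b (0.49 ± 0.37) and Uqcrb (0.33 ± 0.195), each with an interval that included 0.

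The effect of the post-weaning HF diet with LF dams was tested as LH minus LL. No member was called, beside 0.218% of all probes (31 probes). The median log2 difference was 0.07 for the members and 0.03 for all probes. At an unadjusted p under 0.05, 8 members were higher, beside 10.3% of all probes, and 0 were lower, beside 2.56%. The share of members that were higher, 10.7%, was near that of all probes. Without the 5 low-correlation arrays, 2 of them LL, 4 members were higher, beside 7.68%, and 6 were lower, beside 4.8%. Leaving out a cage gave from 1 member higher without cage 8 (5.29% of all probes) to 17 without cage 6 (15.9%), with 4 without cage 4 or cage 9 and 15 without cage 14. All 14 adipocyte genes lay above 0 in this comparison on all arrays, with a median of 0.38, and their median was 0.09 without the 5 arrays; their part in the result was not tested. The smallest p was that of Ndufaf5, a methyltransferase needed to assemble complex I, also singled out after its values were seen. Its lowest, median and highest intensities were 184, 255 and 294 in LL and 247, 314 and 358 in LH, and the log2 difference was 0.29 ± 0.0919 (limma adjusted p = 0.21). Ndufb3 was at 0.32 ± 0.12 in this comparison, with 10 of 10 LH animals above the LL median. Without the 5 low-correlation arrays the difference of Ndufb3 was 0.18. Uqcrc2 in complex III (0.19 ± 0.0999), Cox6a2 in complex IV (0.33 ± 0.447) and Atp5j in the ATP synthase (0.25 ± 0.17) had the highest differences in their complexes. The lowest were Ndufb9 (-0.36 ± 0.398), Uqcrb (-0.14 ± 0.239), Cox6b2 (-0.46 ± 0.3) and Atp5e (-0.35 ± 0.429). With array weights 2 members were called, Ndufaf5 higher and Ndufb10 lower, beside 2.09% of all probes. Since LH stands in both comparisons, a high level in LH enters LH minus LL and HH minus LH with opposite signs.

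The post-weaning HF diet with HF dams was tested as HH minus HL. No member was called, beside 0.512% of all probes (73 probes). The member nearest the threshold was Ndufv2, an iron-sulphur subunit of the NADH-oxidising module of complex I, singled out after its values were seen. Its intensities were 5245, 5263, 5472, 5829, 5101, 5158, 4699, 5284, 5637 and 5139 in HL animals 1 to 10. In HH animals 1 to 10 they were 4658, 4259, 4239, 4335, 3889, 4394, 4486, 4346, 4322 and 5472. All HH animals but animal 10 lay below the lowest HL value. The log2 difference was -0.25 ± 0.0587 (limma adjusted p = 0.0535). In LL the lowest, median and highest values of Ndufv2 were 4278, 5037 and 6206, and in LH 4001, 4892 and 5766. The interaction of Ndufv2, that is HH minus HL less LH minus LL, was -0.21 ± 0.0942 (limma adjusted p = 0.935).

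Over the members as a whole, HH minus HL depended on the low-correlation arrays. On all 40 arrays the median was 0.01, against 0.02 for all probes, and 8 members were lower at an unadjusted p under 0.05, beside 6.47% of all probes, with 0 higher, beside 10.4%. Without the 5 arrays, 3 of which were HL animals, the median of the members was -0.11 against -0.01 for all probes. Then 29 of 75 members were lower at an unadjusted p under 0.05, beside 8.09% of all probes, and 0 higher, beside 3.68%. The 4 brown adipocyte genes that passed the filter lay lower as well, all below 0 with a median of -0.56. Of them 2 were lower at an unadjusted p under 0.05. Cox7a1 and Cox8b, which are 2 of these 4 and were left out of the members, had a median of -0.53. On all arrays the same medians were -0.23 and -0.15. In HL minus LL without the 5 arrays all 4 were higher at an unadjusted p under 0.05, beside 2.19% of all probes, with a median of 0.60. The mean log2 of the 4 was highest in HL animals 3 and 5, at 10.35 and 10.29, and then in HH animal 10, at 10.03. Their part in the result was not tested. In HH minus HL without the 5 arrays Ndufv2 was called, at -0.26 with an adjusted p of 0.0472 by limma, beside 1.36% of all probes (194 probes). The medians of the complexes moved from 0.01 to -0.12 in complex I, from -0.03 to -0.15 in complex III, from 0.03 to -0.09 in complex IV and from 0.01 to -0.06 in the ATP synthase. Without HH animal 10 as well, 8 members were called, all lower, beside 1.92% of all probes (274 probes). They were Atp5l, Atp5pb, Ndufa5, Ndufa9, Ndufv2, Uqcr10, Cox5b and Cox6b1. With array weights 10 members were called, beside 4.22%. On all arrays the count of 8 became 4 without cage 1 (6.9% of all probes) and 5 without cage 23 (2.65%). Without the 5 arrays the median of LH minus LL was 0.02.

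In the 3 cages that held HH and HL animals, Ndufv2 was lower in HH in each, with log2 differences of -0.17, -0.31 and -0.22. Cage 10 held 1 HH and 2 HL animals, cage 20 held 3 HH and 1 HL, and cage 23 held 3 of each, in that order. Each of these cages held 1 low-correlation HL array, and in cage 20 it was the only HL array. The score of all members was higher in HH than in HL within the same cages, by 0.07, 0.15 and 0.08. In the 2 cages with LH and LL animals the score differed by 0.03 and -0.01. Without cage 23 the limma adjusted p of Ndufv2 was 0.584 at a log2 difference of -0.27, and over 22 alternative settings and left-out samples it lay between 0.00371 and 0.584, with Ndufv2 lower in HH in each and past the threshold in 7.

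Other extremes of HH minus HL were Ndufa6 (-0.29 ± 0.0824, 10 of 10 HH animals below the HL median) and Uqcrh, the hinge protein of complex III (-0.21 ± 0.0631, 10 of 10). Their limma adjusted p-values were 0.118 and 0.132. Atp5g1, a gene of the membrane ring of the ATP synthase, was at -0.35 ± 0.213 and Cox6b2 at -0.30 ± 0.223. Cox7a2l was at -0.36 ± 0.129 (limma adjusted p = 0.203). The highest differences were those of Cox6a2 (0.92 ± 0.586), Ndufb4 (0.87 ± 0.436), Atp5e (0.67 ± 0.345) and Uqcrb (0.27 ± 0.177).

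The interaction asked whether the response to the post-weaning diet differed with the maternal diet. No member was called, beside 0.0% of all probes. The median was -0.11 for the members and -0.02 for all probes. Of the 75 members 51 lay below 0 and 24 above, while 46.2% of all probes lay above 0. At an unadjusted p under 0.05, 11 members were lower, beside 2.59% of all probes, and 0 were higher, beside 1.77%. Without the 5 low-correlation arrays 27 were lower, beside 7.29%, and 2 higher, beside 4.59%. Leaving out a cage gave from 3 lower without cage 9 (1.52% of all probes) to 17 without cage 14 (3.9%), with 4 without cage 1 or cage 8, 5 without cage 4, and 7 without cage 12 or cage 23. Among the 11 were Atp5pb (-0.42 ± 0.139), Uqcrc2 (-0.30 ± 0.132), Ndufa9 (-0.30 ± 0.137) and Cox7c (-0.30 ± 0.099), with a limma adjusted p of 0.935 each. Ndufb4 (1.20 ± 0.701), Atp5e (1.02 ± 0.568), Cox6a2 (0.60 ± 0.761) and Uqcrb (0.41 ± 0.306) lay at the other end. With array weights 34 members were called, 10 higher and 24 lower, beside 13.4% of all probes.

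**Figure D3:**
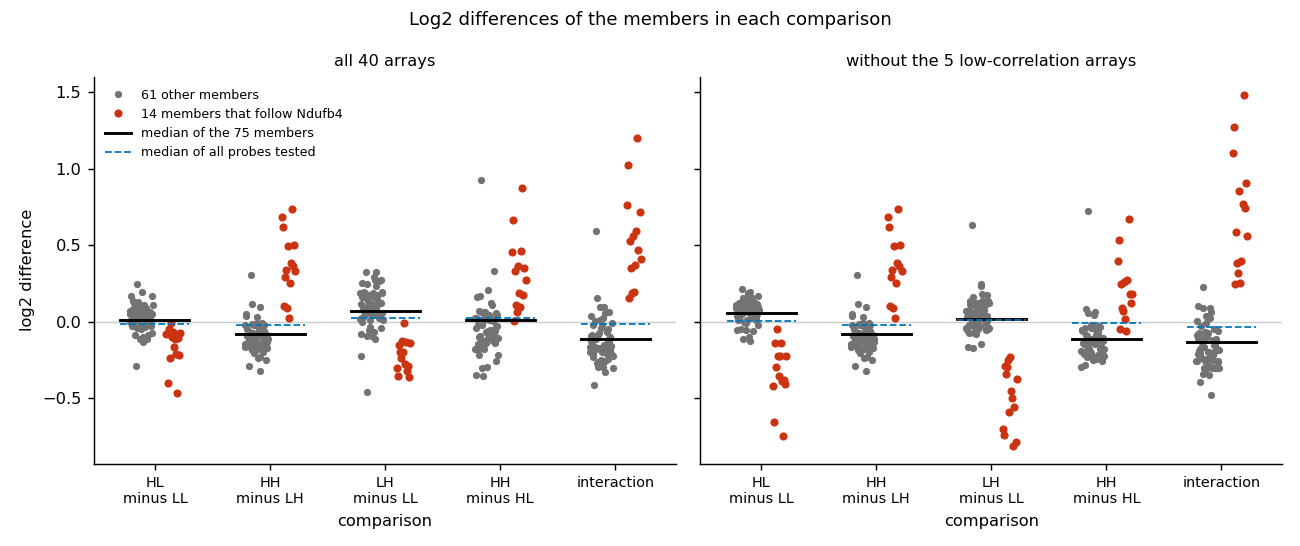
Log2 difference of each of the 75 members in the 4 pairwise comparisons and the interaction, on all 40 arrays (left) and without the 5 low-correlation arrays (right). Black bars are the median of the members and blue dashes the median of all 14244 probes; red points are 14 members that follow Ndufb4 and grey points the other 61. In HH minus HL the black bar moves from 0.01 to -0.11.

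The precision of the comparisons differed between members. The SE of a log2 difference had a median of 0.113 in HL minus LL, 0.0771 in HH minus LH, 0.104 in LH minus LL and 0.0966 in HH minus HL. The 95% interval lay within 1.5-fold of no difference for 64, 64, 63 and 61 of the 75 members in that order. The SE reached 0.476 to 0.666 for the least precise member of a comparison. The groups overlapped for each member in each pairwise comparison.

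The less precise members had a pattern of their own. After group means were removed, 14 members followed Ndufb4, an accessory subunit of the membrane arm of complex I, over the 40 arrays with Pearson's r above 0.7, while the next member, Cox8a, was at 0.577. This set was chosen after the values were seen and is given as a description with no test. It held Ndufb4, Ndufb5, Ndufb9, Ndufb2, Ndufab1 and Ndufb10 of complex I, Uqcrb of complex III, Cox7b, Cox7a2 and Cox6c of complex IV, and Atp5e, Atp5a1, Atp5h and Atp5k of the ATP synthase. The likest were Atp5e (r = 0.982), the epsilon subunit, and Atp5a1 (r = 0.971), the catalytic partner alpha subunit. The r of pairs within the set had a median of 0.881, against 0.465 for pairs of the other 61 members. The points of each r share the array and its normalisation.

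Ndufb4 had a lowest, median and highest intensity of 173, 881 and 2000 in LL, of 265, 398 and 2420 in LH, of 253, 407 and 1389 in HL, and of 256, 800 and 3742 in HH. Each group thus held animals at both ends. Atp5a1 ran from 670 to 5675 in LL, from 987 to 7209 in LH, from 1277 to 5025 in HL and from 955 to 8408 in HH. Its functional partner Atp5b did not follow it (r with Ndufb4 of -0.01), and ran from 17601 to 24502 in HH. Over all 40 arrays Atp5b ran from 11937 in HL animal 6, a low-correlation array, to 28766 in LH animal 6. The SD of log2 intensity over the 40 arrays had a median of 0.583 in the set and of 0.213 in the other members, against 0.256 over all probes. HH animal 6 had the highest value of 16 members, among them Ndufb4, Ndufb5, Ndufb9, Ndufb2, Atp5a1, Atp5e, Atp5k, Cox7b and Cox6c.

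**Figure D4:**
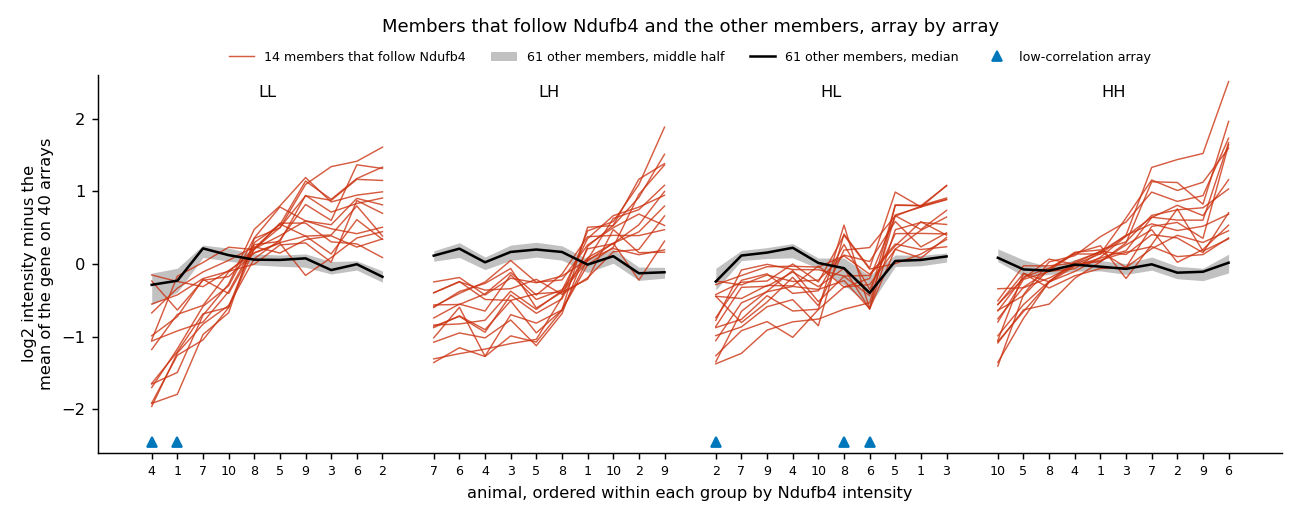
Log2 intensity of the members on each array, less the gene's mean over the 40 arrays, with animals ordered within each diet group by Ndufb4. Red lines are the 14 members that follow Ndufb4, the black line and grey band the median and interquartile range of the other 61, and triangles the low-correlation arrays. The red lines climb from left to right in all 4 groups while the black line varies less.

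Probes of the same gene could part on this pattern. Ndufa5 had 1 probe that followed Ndufb4 (r = 0.98, 280 to 2469 units) and 1 that did not (r = -0.25, 2608 to 4460 units). The same held for Ndufaf5 (r = 0.974 and -0.36). Of 4 probes of Ndufs4, 3 had an r from 0.882 to 0.956 and the brightest had -0.31. In the whole table, 872 probes followed Ndufb4 with an r above 0.8, which is 6.12% of those tested, against 13 of 75 members or 17.3%. They named 769 genes, of which 295 had another probe with an r under 0.5. A log2 difference of such a gene therefore depended on the probe: in HH minus HL the probes of Ndufa5 were at -0.14 and 0.52.

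The group differences of the set were imprecise. The 14 members had a median log2 difference of -0.11 in HL minus LL, 0.35 in HH minus LH, -0.22 in LH minus LL and 0.30 in HH minus HL. The other 61 had 0.04, -0.11, 0.11 and -0.03. In HH minus LH the 14 lay above 0 and 55 of the 61 others below 0. The 14 were chosen for moving together in these data, so their shared sign does not count as 14 separate observations. All 21 members that were lower at an unadjusted p under 0.05 in HH minus LH were among the 61. In HH minus HL, the mean log2 score of the 61 others was 11.65 ± 0.155 (SD, n = 10) in HL and 11.62 ± 0.0961 in HH, and that of the 14 was 9.83 ± 0.496 and 10.15 ± 0.586. Without the 5 arrays, the median of the 61 was -0.13 in HH minus HL, with 56 below 0, and that of the 14 was 0.18. Of all probes 46.3% lay above 0 in that fit. In LH minus LL without the 5 arrays the 14 had a median of -0.47 and the others of 0.04.

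Complex IV has subunit forms bound to a tissue, and these stood out on single arrays. Cox6a2, the heart and skeletal muscle form of subunit 6a, had a median of 115 in LL and 128 in LH, and 102 in HL against 136 in HH, near background. It reached 6022 in HH animal 10, 583 in LL animal 4, 800.5 and 805 in LH animals 3 and 5, and 608 in HH animal 3. The mean log2 of the 8 muscle genes was 13.78 in HH animal 10, 10.97 in HH animal 3 and 10.40 in LH animal 5, but 7.56 in LH animal 3 and 7.81 in LL animal 4. Of 14 muscle genes on the array 8 passed the filter, and the mean over all 14 ran from 6.69 to 7.32 in LL and 6.56 to 9.40 in LH, and 6.66 to 8.45 in HL against 6.50 to 12.85 in HH. Cox6a1, the common form, stayed between 6657 and 12387 on all arrays.

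Cox6b2, the testis form of subunit 6b, had medians of 124, 105, 119 and 118 in LL, LH, HL and HH. It was at 1000 in LL animal 4, 390 in HL animal 6 and 332 in HL animal 8, 3 of the 5 low-correlation arrays. These animals had the highest means of the 10 testis genes, at 13.15, 11.80 and 11.33. Of 13 testis genes on the array 10 passed the filter, and the mean over all 13 ran from 6.27 to 12.83 in LL and 6.23 to 10.06 in LH, and 6.25 to 11.37 in HL against 6.24 to 8.85 in HH. Cox7a2l was highest in HL animal 2 (5165), HL animal 6 (5032) and LL animal 1 (4573), against medians from 2460 to 2904. The 4 epididymis and seminal vesicle genes had means of 10.58, 10.81 and 10.79 there, and of 10.91 in LL animal 4, where Cox7a2l was at 3106. Cox4i2, the form of subunit 4 found in lung, had medians from 81.9 to 97.6, at the background limit.

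**Figure D5:**
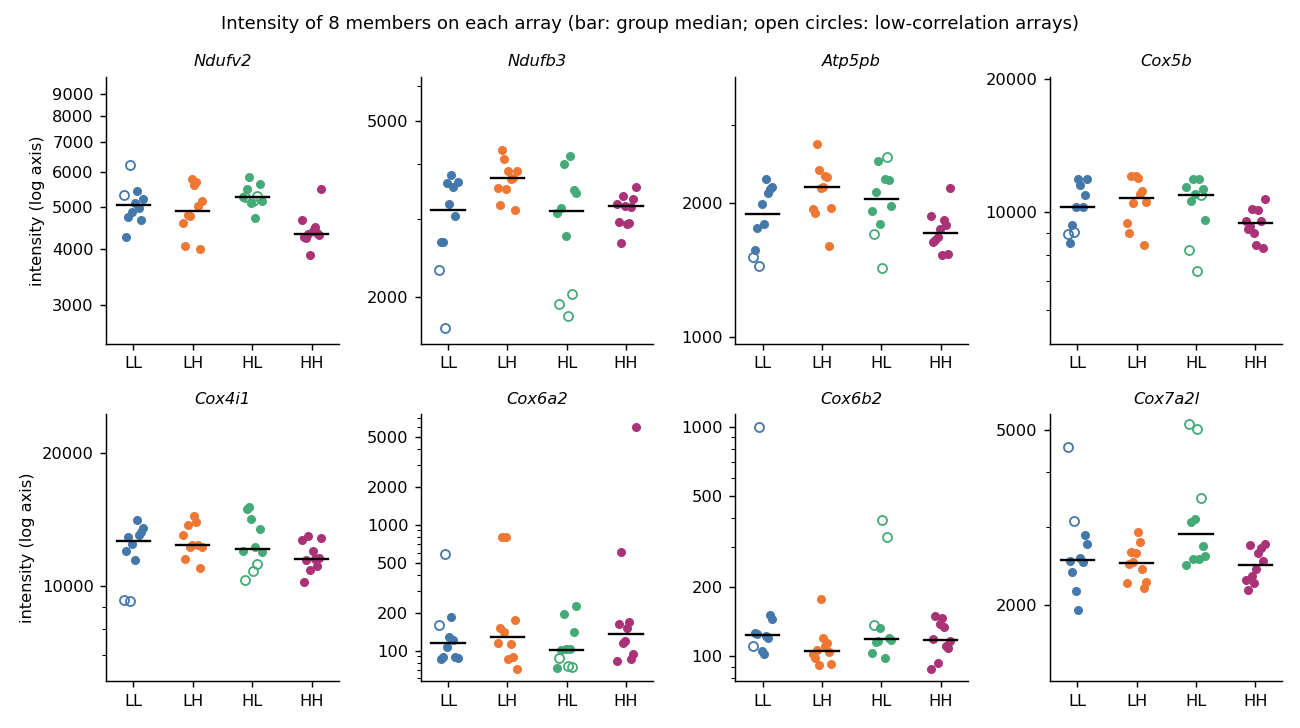
Intensity (log axis) of Ndufv2, Ndufb3, Atp5pb, Cox5b, Cox4i1, Cox6a2, Cox6b2 and Cox7a2l on each array by diet group, with the group median as a bar and the 5 low-correlation arrays as open circles. For Ndufv2, 9 of 10 HH animals lie below the HL median; Cox6a2 stands out in HH animal 10 and Cox6b2 in LL animal 4.

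Genes with related work gave the setting. In HH minus LH 9.72% of all probes were lower and 2.74% higher at an unadjusted p under 0.05, with a median of -0.02. The settings for cages used for the members were not applied to the lists that follow. The 70 mitochondrial ribosomal protein genes had a median of -0.12, with 27 lower and 1 higher at an unadjusted p under 0.05. The 22 assembly factors outside the rule had a median of -0.12 with 7 lower, the 12 citrate cycle genes -0.09 with 3 lower, and the 13 fatty acid oxidation genes -0.08 with 4 lower, with 0 higher in each. The 57 cytosolic ribosomal protein genes had a median of 0.03, with 7 higher and 0 lower. None of these genes was called. In LH minus LL the fatty acid oxidation genes had a median of 0.33, with 6 of 13 higher, and the citrate cycle genes 0.16, with 4 of 12 higher, beside 10.3% of all probes. Without the 5 low-correlation arrays these were 0.17 with 4 higher and -0.0025 with 1 higher, beside 7.68%. The fatty acid oxidation gene Acadm was called there, at 0.29 ± 0.0625 (limma adjusted p = 0.0498), beside 60 of all 14244 probes. Complex II, which feeds electrons from succinate, had a median of -0.04 over 3 genes in HH minus LH. Of 10 regulators of mitochondrial biogenesis, Ppargc1b, a coactivator of the NRF1 and ERR factors, was called in HH minus HL without the 5 arrays, at -0.72 ± 0.115 (limma adjusted p = 0.00295). So was the citrate cycle gene Idh3b, at -0.38 ± 0.0733 (limma adjusted p = 0.0125). Cidea, a lipid droplet protein of brown and other adipocytes, was called at -1.88 ± 0.302 (limma adjusted p = 0.00294). The adipocyte gene Slc2a4 was called as well, at -0.51 ± 0.117 (limma adjusted p = 0.0355). In HH minus HL without the 5 arrays 1.36% of all probes were called (194 probes). The genes given here as called were singled out from the lists after their values were seen. On all 40 arrays none of these genes was called. Of 9 brown adipocyte genes on the array 4 passed the filter. Ucp1, the uncoupling protein, was above background on 6 arrays, and Elovl3, Dio2 and Prdm16 on 0.

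Promoters of the members were read from RefSeq (build GRCm38.p6, 250 bases before to 50 after the start), and 64 of 75 members matched by symbol. The letters of 6 motifs were searched on both strands. The NRF1 palindrome (the capitals in the stretch of Atp5g2) was in 6 of 64 promoters (9.38%), against 0.977% of 27025 promoters. The ETS motif CCGGAAG was in 14 (21.9%, against 9.12%), the YY1 motif AAGATGGCG in 6 (9.38%, against 1.49%), and the ERR site AAGGTCA in 6 (9.38%, against 4.66%). The TATA motif TATAAA was in 5 (7.81%, against 14.2%) and CCAAT in 27 (42.2%, against 37.9%). A match is a description of letters and not a bound site.

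The YY1 motif was in Ndufa9, Ndufc1, Ndufs4, Ndufs6 and Ndufs7 of complex I and in Atp5j2. The ERR site was in 4 of 10 promoters of the members that follow Ndufb4 (Ndufb4, Ndufb2, Atp5e and Atp5k) and in 2 of the 54 others, Atp5g3 and Atp5l. This split was chosen after the values were seen and rests on the brightest probe of each gene. Ndufa5, Ndufaf5 and Ndufs4 count with the others, although further probes of these genes followed Ndufb4. A link between the motif and the pattern was not tested. Stretches are shown for the NRF1 motif, the rarest of the 6 over all promoters, in 4 members, and for the ERR site of Ndufb4, after which the set is named. Capitals mark the motif, and each stretch lies upstream of the start and is printed 5′ to 3′ on the strand of the gene.
Atp5g2 (chr15:102671055-102671114, minus strand): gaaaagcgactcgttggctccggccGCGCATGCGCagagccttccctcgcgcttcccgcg
Atp5k (chr5:108434415-108434474, minus strand): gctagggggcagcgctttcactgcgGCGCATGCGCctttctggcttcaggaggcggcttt
Cox6a1 (chr5:115349086-115349145, minus strand): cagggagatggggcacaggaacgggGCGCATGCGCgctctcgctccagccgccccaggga
Ndufaf4 (chr4:24897945-24898004, plus strand): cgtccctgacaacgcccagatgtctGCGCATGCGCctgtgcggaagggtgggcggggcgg
Ndufb4 (chr16:37654392-37654448, minus strand): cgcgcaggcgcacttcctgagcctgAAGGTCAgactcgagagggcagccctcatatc

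The 4 members with the NRF1 stretch had different patterns over the arrays. Atp5k followed Ndufb4 with an r of 0.881, while Atp5g2, Cox6a1 and Ndufaf4 had an r of 0.14, 0.26 and 0.05. In HH minus HL the log2 difference was 0.33 ± 0.206 for Atp5k and 0.07 ± 0.101 for Cox6a1, with limma adjusted p-values of 0.4 and 0.745.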

How the data were processed

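White adipose RNA of 40 male mice was measured on Illumina MouseRef-8 bead arrays. The deposited table gives intensity on a linear scale, quantile-normalised by the authors over the 40 arrays in BeadStudio (version not given in the sources used here), with no comparison columns. Probes were named through the platform annotation and RefSeq, and 23978 of 25697 probes had 1 gene symbol. The log2 of the intensity was taken with no background subtraction. Ndufs5-ps is annotated as a pseudogene and may share signal with its parent gene. The members and the gene lists were chosen with earlier results of these data known.

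Pairwise comparisons used limma 3.58.1 (lmFit and eBayes with a variance trend) on their own 20 arrays, and the interaction used all 40. P-values are two-sided and adjusted by the Benjamini-Hochberg method over 14244 probes. A member is called at an adjusted p under 0.05. Members named are those called, the highest and lowest of each complex in each comparison, and a list of main subunits and tissue forms; others are marked as singled out. The fit was tested on simulated data. A complex score is the mean log2 intensity of its members. Likeness is Pearson's r over 40 arrays after removing group means. An array was of low correlation when its mean correlation with the others lay more than 3 scaled median absolute deviations below the median. Depth does not apply to arrays, and the number of animals limits the precision. For 5 members with several RefSeq promoters, the first listed was used.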

Additional observations from a re-analysis of the deposited data

Results flagged for a closer look

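Among 156 groups of 10 animals, of 34 named members and the complex scores, 19 had a highest or lowest animal that stood apart from the others by Dixon's test, which chance does in about 1 in 20 groups. Members that follow Ndufb4 stood apart in HH animal 6, at 3741.5 for Ndufb4, 4167.5 for Ndufb9, 1866 for Cox7b and 295.6 for Atp5k, and in LH animal 9, at 2420.4 for Ndufb4 and 149.8 for Atp5k. In HH animal 10, Cox6a2 was at 6022.2 (next highest 608.2), Cox6b1 at 10815.6, Ndufa9 at 4843 and Atp5pb at 2169.2, each the highest of its group. On the low-correlation arrays, LL animal 4 stood apart at 999.8 for Cox6b2, 583 for Cox6a2 and 2677 for Atp5j (next lowest 6765.7), LL animal 1 at 4642.9 for Atp5g1, 4572.9 for Cox7a2l and 10.9742 for the complex IV score, and HL animal 8 at 10237.5 for Cox5a. Cox6b2 was at 177.6 in LH animal 5, and Uqcrh was lowest in LH animal 2, at 8320.5.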

How the results depend on the processing

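Counts of members called moved under a few settings. With array weights 3 members were called in HH minus LH (Atp5pb, Ndufb3 and Ndufaf7, lower), 2 in LH minus LL (Ndufaf5 higher, Ndufb10 lower), 10 in HH minus HL and 34 in the interaction (10 higher and 24 lower). In HH minus HL, 1 member, Ndufv2, was called with all 40 arrays in 1 model, without the low-correlation arrays, with median centring, with no variance trend and without HH animal 10, and 8 without both the low-correlation arrays and HH animal 10. Settings without HH animal 10 and with the Ndufb4 score as a covariate were chosen after seeing the data. Other counts of called members were the same as in the main fit. Counts of members at an unadjusted p under 0.05 moved more: over the settings, left-out cages included, 0 to 9 were higher in HL minus LL (1 in the report), 5 to 33 lower in HH minus LH (21), 0 to 17 higher in LH minus LL (8), 3 to 35 lower in HH minus HL (8) and 2 to 37 lower in the interaction (11). The median of the members kept its sign under each setting in HH minus LH (-0.06 to -0.12), LH minus LL (0.02 to 0.12) and the interaction (-0.07 to -0.20). It took both signs in HL minus LL (-0.03 to 0.06) and HH minus HL (-0.13 to 0.07). In HH minus HL it was negative without the low-correlation arrays (-0.11), with array weights (-0.12), with median centring (-0.02) and with the Ndufb4 score as a covariate (-0.05). It was also negative without HH animal 10 (-0.007), and without that animal and the low-correlation arrays (-0.13). Without cage 10, 20 or 23 it was -0.01, -0.04 and -0.03. The cause was not tested. No paired analysis was possible because the replicate numbers follow the order of the samples and tie no animals together. Cages did tie animals of both post-weaning diets, and with cage as a fixed term in those cages 0 members were called in LH minus LL and in HH minus HL, with Ndufv2 at -0.23 in the latter (limma adjusted p = 0.158). The number of animals and cages, and the dimness of members near background such as Cox4i2, limit what can be seen.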
